A study of Mus musculus with 17 samples.

Results

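Genes of retinoic acid synthesis, breakdown and reception, 10 of the 25239 genes in each deposited count table, were followed across bulk RNA-seq libraries of mouse prefrontal cortex. They were taken by symbol: the synthesis enzymes Aldh1a1, Aldh1a2 and Aldh1a3, the breakdown enzyme Cyp26b1, the retinoic acid receptors Rara, Rarb and Rarg, and the retinoid X receptors Rxra, Rxrb and Rxrg. The set was chosen by a measured value, the Aldh1a1 level, which had been seen to be much higher in the orbitofrontal cortex (OFC) than in the medial prefrontal cortex (mPFC), so the members' values between regions are given as a description without a test.

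The study asked how addicted and non-addicted mice differ in cortical RNA before and after oDASS, an addiction protocol in which mice trigger light stimulation of their own dopamine neurons. All 17 libraries came from the DAT-cre line, which carries Cre recombinase under control of the dopamine transporter gene, and mice were classed as perseverers (addicted) or renouncers (non-addicted). Imprints of OFC tissue, taken before oDASS, gave 2 perseverer and 3 renouncer libraries; after oDASS, OFC dissections gave 3 perseverer and 3 renouncer libraries, and mPFC dissections also 3 and 3. Stage and way of collection coincide and cannot be told apart. The labels give no age and leave it unsaid if each replicate is its own animal, so p-values measure only the spread between these samples, which may be technical.

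Retinoic acid is made from vitamin A: retinol is oxidised to retinal, and the ALDH1A enzymes oxidise retinal to retinoic acid. CYP26 enzymes break it down, so that its level in a tissue follows the balance of local synthesis and breakdown. In the nucleus it binds RAR proteins, which act in pairs with RXR proteins on direct repeats in DNA and switch target genes such as Rarb and Cyp26a1; in adult cortex the pathway is known for a part in synaptic scaling.

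The libraries held 8960550 to 10662700 counts in the 5 imprints and 12392700 to 20945100 in the 12 dissections. Adult haemoglobin genes took 29.7% to 90.7% of the counts in the imprints, against 0.0253% to 0.0787% in the dissections. The lowest imprint share belonged to renouncer imprint 1, which stood apart from the other 4 (85.4% to 90.7%). Levels are therefore counts scaled to library size (CPM, after TMM scaling) in the dissections, and CPM outside the haemoglobin genes in the imprints. A count of 0 allows up to 3 counts, which is 0.458 to 3.06 CPM outside haemoglobin in the imprints, and such limits cover counting error only. Of 6 excitatory cortical neuron markers, 5 passed the low-count filter in the imprints and 6 in the dissections. Of 6 markers of dopamine neurons, the cells the DAT-cre line targets, Slc6a3 averaged 0.374 CPM in the OFC and 0.250 CPM in the mPFC. Another, En1, had no count in any library. The 6 summed to 9.05 to 11.4 CPM in the OFC and 7.33 to 22.9 CPM in the mPFC, mostly from the others.

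The Aldh1a1 locus is shown for what its row counts. Aldh1a1 lies at chr19:20492583-20643463 (GRCm38, plus strand) and has coding transcripts with separate starts, in GENCODE M21 one of 16 exons starting at 20492715 and one of 13 exons starting at 20601961. RefSeq places its 2 starts near these, at 20492583 and 20601968, and the windows of 250 bases before the RefSeq starts are printed with AGATAA, the core of sites for GATA factors, in capitals; it was searched on both strands and 9.99% of 32851 windows of 250 bases hold it. It is in the window at the downstream start, 26 bases before the RefSeq start, and not in the upstream one. Of the 17 member windows 2 hold it, the other being of Rarg. TATAAA, also searched, is in 12.4% of all windows and in 1 member window, of Cyp26b1. A match is a description of these letters, and its use was not examined.
Aldh1a1 upstream start, chr19:20492333-20492582, plus strand: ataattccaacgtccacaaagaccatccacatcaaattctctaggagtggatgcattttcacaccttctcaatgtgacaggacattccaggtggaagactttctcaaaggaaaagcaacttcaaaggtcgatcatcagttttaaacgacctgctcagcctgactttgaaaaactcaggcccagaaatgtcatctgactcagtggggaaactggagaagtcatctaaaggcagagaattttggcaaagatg
Aldh1a1 downstream start, chr19:20601718-20601967, plus strand: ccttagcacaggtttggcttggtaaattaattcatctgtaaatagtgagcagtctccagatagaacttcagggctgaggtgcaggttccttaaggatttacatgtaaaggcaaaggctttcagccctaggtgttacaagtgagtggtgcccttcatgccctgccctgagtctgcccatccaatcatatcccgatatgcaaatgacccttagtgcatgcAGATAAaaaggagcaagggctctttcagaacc

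The Rarb and Cyp26a1 windows are shown because they hold a repeat of the kind that RAR-RXR pairs are known to bind. A direct repeat of the receptor half-site with 5 bases between (DR5, searched on both strands) is in 29 of 32851 windows (0.0883%), and Rarb was the 1 member of 9 with a window to hold it, 36 bases before the start. Cyp26a1, the breakdown enzyme related to Cyp26b1, holds one 15 bases before its start, on the minus strand. The repeats with 1 and 2 bases between (DR1 in 0.164% and DR2 in 0.174% of windows) were in none of the 17 member windows. A match is a description of these letters, and whether the site is in use was not examined here. The repeat is in capitals.
Rarb, chr14:16575477-16575726, minus strand: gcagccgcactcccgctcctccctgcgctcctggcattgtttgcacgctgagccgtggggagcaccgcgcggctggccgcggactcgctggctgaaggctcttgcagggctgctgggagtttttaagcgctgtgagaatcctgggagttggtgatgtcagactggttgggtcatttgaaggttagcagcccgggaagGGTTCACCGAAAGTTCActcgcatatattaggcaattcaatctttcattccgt
Cyp26a1, chr19:37697558-37697807, plus strand: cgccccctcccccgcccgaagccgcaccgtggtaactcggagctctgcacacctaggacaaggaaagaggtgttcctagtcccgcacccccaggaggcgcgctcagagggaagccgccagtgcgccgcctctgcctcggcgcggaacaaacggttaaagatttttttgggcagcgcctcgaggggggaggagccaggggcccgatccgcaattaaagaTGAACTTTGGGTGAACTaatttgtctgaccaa

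Per kilobase of gene length, the members spanned a wide range of levels. In the OFC dissections the order by mean CPM per kb was Aldh1a1 (34.3), Rxrb (30.5), Rxra (4.90), Rxrg (3.65), Rarb (2.57), Rara (1.98), Aldh1a2 (1.64), Cyp26b1 (1.08), Rarg (0.334) and Aldh1a3 (0.186). In the mPFC dissections it was Rxrb (29.1), Rxrg (6.87), Aldh1a1 (5.99), Rxra (4.41), Rarb (2.44), Rara (2.08), Aldh1a2 (1.27), Aldh1a3 (1.13), Rarg (0.420) and Cyp26b1 (0.159). Neighbours in these orders overlapped in their library ranges except Rxrb above Rxra and Cyp26b1 above Rarg in the OFC, and Rxrb above Rxrg in the mPFC.

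Aldh1a1 held 99.0% ± 2.24 of the summed level per length of the 3 synthesis enzymes in the imprints (SD, n = 5), 94.9% ± 2.45 in OFC dissections and 68.7% ± 11.8 in mPFC dissections (SD, n = 6 each). Rarb and Rara shared most of the RAR level in dissections: Rarb held 51.6% ± 6.39 in the OFC and 49.3% ± 5.38 in the mPFC, and Rara 41.4% ± 7.87 and 41.9% ± 7.33 (SD, n = 6 each). In the imprints Rara held 81.9% ± 13.9 (SD, n = 5). Rarb shares 34.1% of its exon bases with Top2b on the opposite strand, and the library kit does not keep strand. The Rarb levels, their place above Rara and these RAR shares are therefore uncertain. Rxrb was the main RXR, at 65.1% ± 9.94 in the imprints, 78.2% ± 3.52 in the OFC and 72.1% ± 5.71 in the mPFC.

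**Figure D1:**
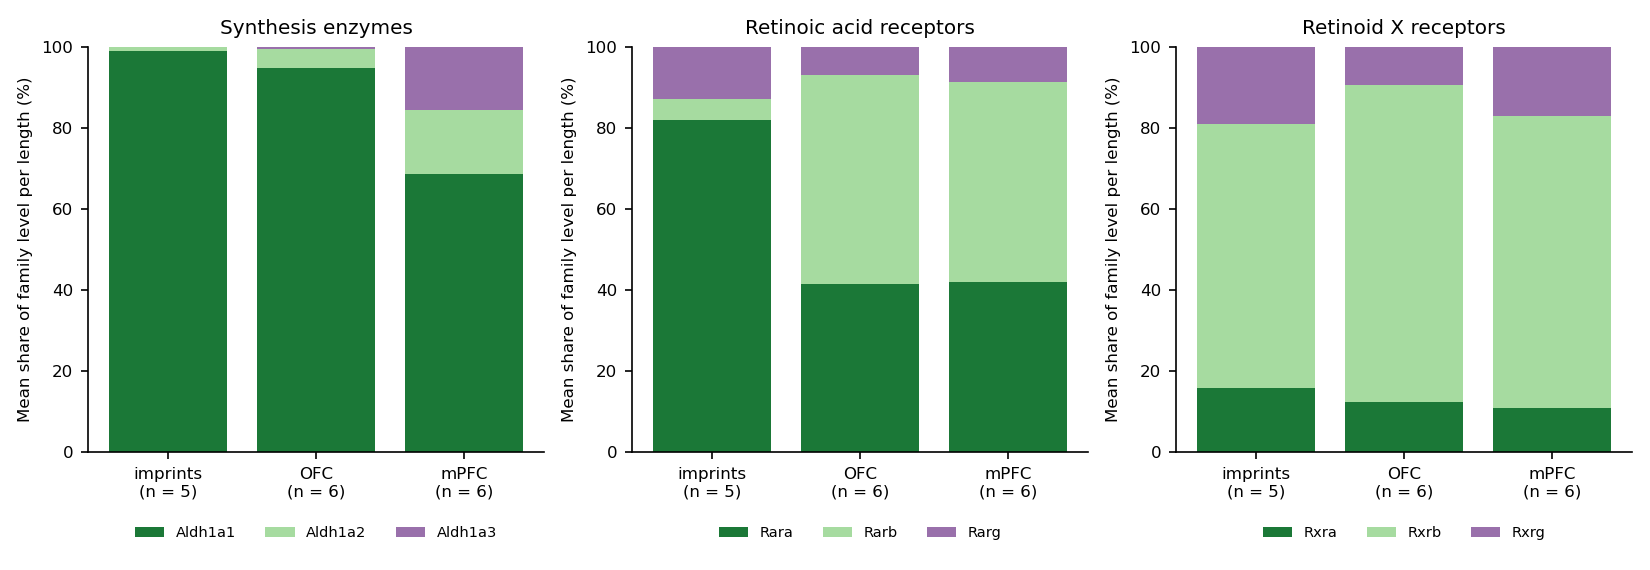
Mean share (%) of each gene in its family's summed level per gene length, for the synthesis enzymes, the RARs and the RXRs, in imprints (n = 5), OFC dissections and mPFC dissections (n = 6 each). Aldh1a1 holds 99.0%, 94.9% and 68.7% of the synthesis enzymes, and Rara 81.9% of the RARs in imprints against 41.4% and 41.9% in dissections. The RAR shares are uncertain, since Rarb shares exon bases with Top2b on the opposite strand.

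Between regions, 4 members did not overlap between the 6 OFC and the 6 mPFC dissections: Aldh1a1 and Cyp26b1 were higher in the OFC, Aldh1a3 and Rxrg lower. Of 15025 genes tested, 1.01% were higher and 0.885% lower without overlap (1.9% in either direction); since this contrast chose the set, nothing is read from the members' count. Fewer cells of a type and less RNA per cell cannot be told apart in bulk samples.

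Aldh1a1, a cytosolic enzyme of retinal oxidation that is also known as a marker of some midbrain dopamine neurons, had 104.4, 84.2 and 126.5 CPM in OFC perseverers and 83.4, 120.2 and 103.5 CPM in OFC renouncers. In the mPFC it had 13.3, 19.5 and 23.1 CPM in perseverers and 11.2, 7.57 and 33.9 CPM in renouncers. Every OFC library was above every mPFC library, and mPFC renouncer 3 was the highest of its region. The means were 103.7 ± 17.8 CPM in the OFC and 18.1 ± 9.57 CPM in the mPFC (SD, n = 6 each), a log2 difference of 2.51. Its close paralogue Aldh1a7, which shares 7.53% of the 2004 windows of 50 bases in the 13-exon coding transcript, had 3.43 ± 0.834 CPM in the OFC and 2.40 ± 1.01 CPM in the mPFC (SD, n = 6 each). The summed dopamine neuron markers ranged from 9.05 to 11.4 CPM in the OFC and from 7.33 to 22.9 CPM in the mPFC, with En1 at 0. Of these 6 markers, 3 were tested between regions: 1 was positive in the OFC, the median log2 was -0.30, and none was called. Oligodendrocyte markers (Mbp, Mobp, Mog, Mag and Cnp) moved with the regions too: all 5 were positive in the OFC, at a median log2 of 0.71 against 0.0017 for all genes, and none was called (smallest edgeR adjusted p = 0.0534). Their sum was 4922 to 18378 CPM in the OFC and 1688 to 6704 CPM in the mPFC, so the regions overlapped. The highest mPFC library for Aldh1a1, mPFC renouncer 3, was also the highest mPFC library for this sum. Leukocyte sums did not overlap (39.8 to 258.5 CPM in the OFC, 10.5 to 39.3 CPM in the mPFC). Of 4 leukocyte markers tested, 3 were positive and 1 was called higher. Of 7 astrocyte markers, 6 were positive, at a median log2 of 0.07, and 1 was called higher. The part of these markers in the members' values was not tested.

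Cyp26b1, which oxidises retinoic acid to inactive forms, had 5.74, 5.42 and 5.35 CPM in OFC perseverers and 5.44, 5.46 and 4.12 CPM in OFC renouncers. In the mPFC it had 0.274, 0 and 1.38 CPM in perseverers and 1.19, 1.33 and 0.462 CPM in renouncers. All OFC libraries lay above all mPFC libraries, and mPFC perseverer 2 had no count. The log2 difference was 2.74, from means of 5.25 ± 0.573 CPM in the OFC and 0.773 ± 0.600 CPM in the mPFC (SD, n = 6 each). The other breakdown enzymes were near 0: Cyp26a1 averaged 0.163 CPM in the OFC and 0.140 CPM in the mPFC, and Cyp26c1 0.0399 and 0.0342 CPM.

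Aldh1a3, the third retinal-oxidising enzyme, ran the other way. It had 1.05, 0.712 and 0.0713 CPM in OFC perseverers and 0.609, 1.08 and 0.270 CPM in OFC renouncers, against 4.38, 4.99 and 1.21 CPM in mPFC perseverers and 1.79, 5.93 and 4.77 CPM in mPFC renouncers. The closest libraries were OFC renouncer 2 at 1.08 CPM and mPFC perseverer 3 at 1.21 CPM, so the gap between the regions was small. The means were 0.632 ± 0.407 CPM in the OFC and 3.85 ± 1.89 CPM in the mPFC (SD, n = 6 each), a log2 difference of -2.58.

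Rxrg, the RXR known for restricted expression in brain, averaged 8.63 ± 0.779 CPM in the OFC and 16.2 ± 4.38 CPM in the mPFC (SD, n = 6 each), a log2 difference of -0.90. Its OFC libraries ranged from 7.83 to 9.90 CPM and its mPFC libraries from 10.6 to 22.5 CPM. The other 6 members overlapped between regions, with log2 differences of 0.42 for Aldh1a2, 0.16 for Rxra, 0.07 for Rarb, 0.06 for Rxrb, -0.07 for Rara and -0.34 for Rarg. Markers of striatal projection neurons, in which Rarb and Rxrg are also known to be expressed, summed to 409.0 to 440.5 CPM in the OFC and 325.0 to 374.9 CPM in the mPFC, with Drd2 at 0.298 and 0.745 CPM. Most of the list did not follow its sum: of 10 tested, 4 were positive in the OFC and 1 was called higher. Their median log2 was -0.13, against 0.0017 for all genes. The part of these markers in the members' values was not tested.

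**Figure D2:**
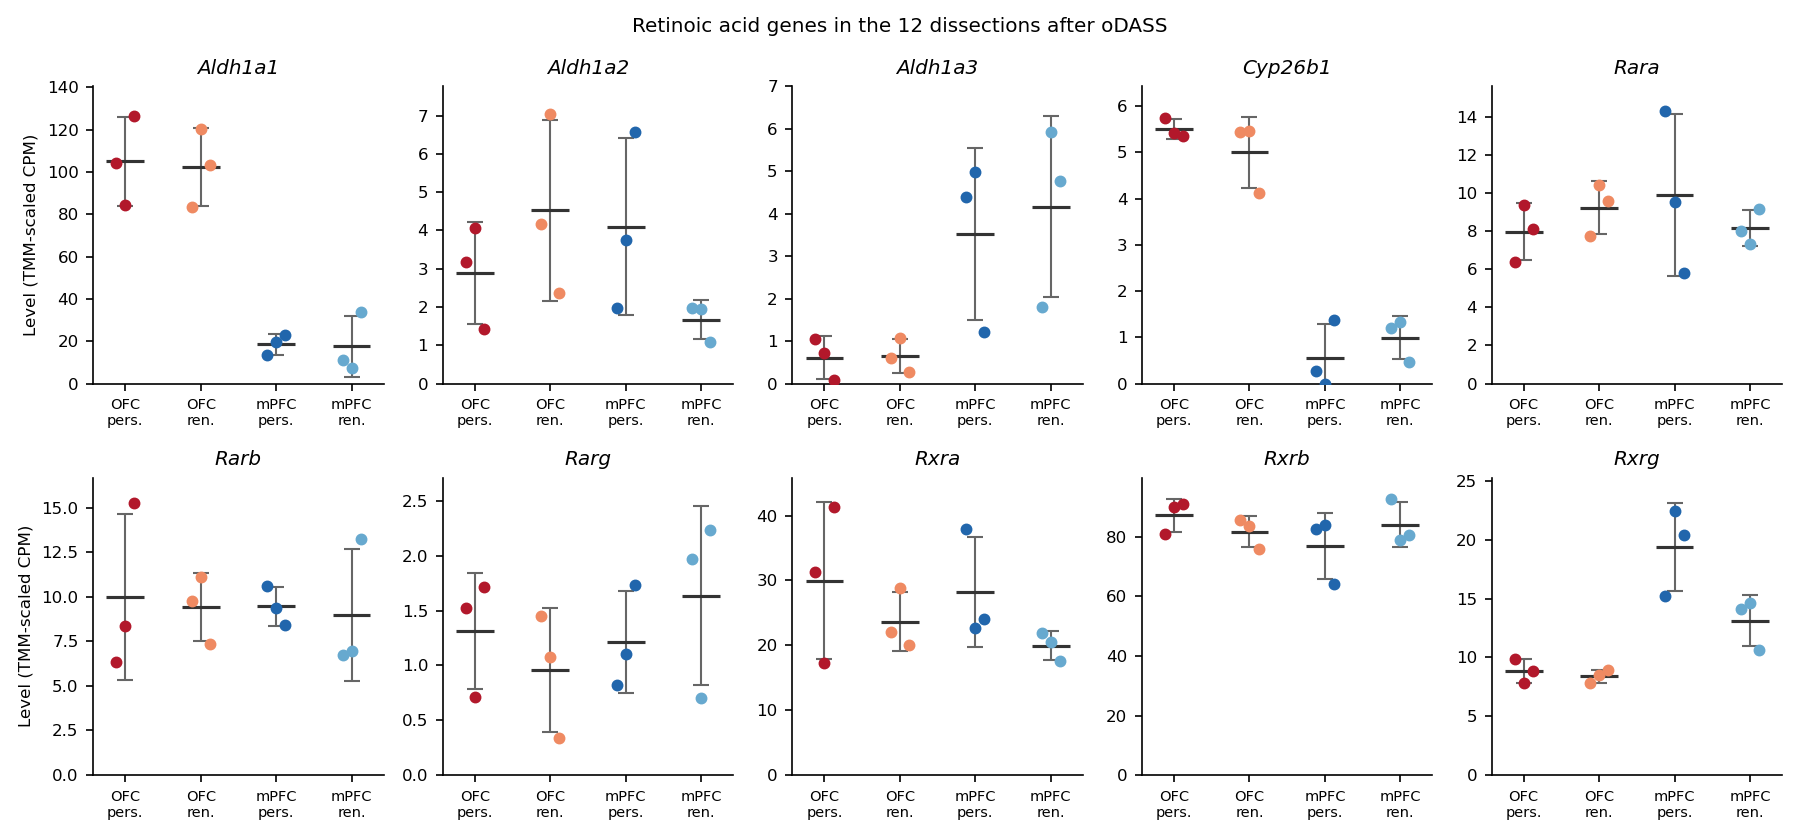
Level (TMM-scaled CPM, linear axes from 0) of each of the 10 genes in OFC and mPFC dissections of perseverers and renouncers; points are libraries, lines the mean and bars the SD (n = 3 per group). Aldh1a1 and Cyp26b1 are higher in every OFC library and Aldh1a3 and Rxrg in every mPFC library.

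Outside the 10 members, 60 genes of retinoid uptake and carriage, other retinoid enzymes, receptor cofactors, RXR partners and retinoid-responsive genes were followed, of which 46 were tested between regions. Cbln2, a synaptic organiser reported as retinoic acid responsive in cortex, was the 1 of 46 that was called, and it rose in the OFC: 87.1, 117.9 and 81.8 CPM in perseverers and 115.9, 102.2 and 107.0 CPM in renouncers, against 48.5 to 70.0 CPM over the 6 mPFC libraries. Its log2 fold change was 0.71 ± 0.11 (SE; edgeR adjusted p = 0.0028), higher in all 6 OFC libraries than in any mPFC library. Over all 15025 genes 1.76% were called. The lists were chosen with earlier results of these data known, so nothing about the pathway is read from Cbln2 or from this 1 of 46. Rbp4, the plasma retinol carrier, at log2 -0.63 ± 0.16 (edgeR adjusted p = 0.0616), and the thyroid hormone receptor Thrb at -0.46 ± 0.13 (edgeR adjusted p = 0.0773) did not pass. With the replicate number as a block, 7 of the 46 were called, Rbp4 (edgeR adjusted p = 0.00804) and Thrb (edgeR adjusted p = 0.0069) among them.

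By a rule of likeness (Pearson r of log2 CPM over the 12 dissections, among 15025 genes, which share the region difference), the genes nearest to Aldh1a1 were E030003E18Rik (r = 0.995), Patj (0.969), Fzd10os (0.959), Serpinb1a (0.957) and Rcan2 (0.941). Those nearest to Cyp26b1 were led by Gm45916 (0.932) and Slc16a6 (0.927), to Aldh1a3 by H2-DMa (0.941) and Tmem158 (0.928), to Rxrg by Necab2 (0.941) and Cyp4f15 (0.935), to Aldh1a2 by Irak3 (0.943) and Colec12 (0.854), and to Rarb by Phip (0.848) and Nfatc2ip (0.843).

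E030003E18Rik, the nearest gene to Aldh1a1, is a long non-coding RNA whose RefSeq span (chr19:20492715-20556410, GRCm38) lies inside Aldh1a1. This span has the same start and end as a non-coding Aldh1a1 transcript of 4 exons. The exons of E030003E18Rik itself were not compared. Of the 1085 bases of the 4-exon transcript, 339 (31.2%) are also in the 16-exon coding transcript and 0 in the 13-exon one. A coding transcript of 8 exons holds 295 of them (27.2%). How reads in the shared exons were assigned is not given in the sources used here, so both rows are uncertain there. The E030003E18Rik counts were 8.90%, 9.16% and 10.4% of those of both rows in OFC perseverers and 8.58%, 9.12% and 9.56% in OFC renouncers. In the mPFC they were 7.14%, 7.34% and 6.98% in perseverers and 6.47%, 3.96% and 10.4% in renouncers. The exact 95% binomial interval ran from 7.67% to 10.2% in OFC perseverer 1 and from 1.09% to 9.83% in mPFC renouncer 2, and the intervals of all 6 mPFC libraries reached into the OFC range.

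Between perseverers and renouncers, no member was called in any tissue. In the OFC dissections all 10 members were tested and 0 of 14621 genes passed (0% called; 377 genes at an unadjusted p under 0.05 with edgeR, and 0 genes called with DESeq2). The members' median log2 fold change was 0.09, against 0.00097 for all genes, 7 of 10 were positive and all 10 overlapped, where 9.19% of genes did not. Aldh1a1 had a log2 fold change of 0.05 ± 0.20 (SE; edgeR adjusted p = 0.990), Cyp26b1 0.15 ± 0.25, Rxra 0.36 ± 0.28 and Aldh1a2 -0.63 ± 0.46.

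In the mPFC dissections 0 of 14375 genes passed (0% called; 639 at an unadjusted p under 0.05, and 0 with DESeq2). Rxrg was the 1 of 10 members without overlap, where 10.9% of genes did not overlap in either direction and 5.68% were higher without overlap. It had 15.2, 22.5 and 20.4 CPM in perseverers and 14.1, 14.7 and 10.6 CPM in renouncers, with the lowest perseverer just above the highest renouncer, and a log2 fold change of 0.54 ± 0.25 (SE; edgeR adjusted p = 0.943). Aldh1a2 had the lowest unadjusted p of the 10, 0.0444, at a log2 fold change of 1.29 ± 0.57 (SE; edgeR adjusted p = 0.943). Cyp26b1 was at -0.79 ± 1.10, Rxra at 0.48 ± 0.24 and Aldh1a1 at 0.07 ± 0.48.

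**Figure D3:**
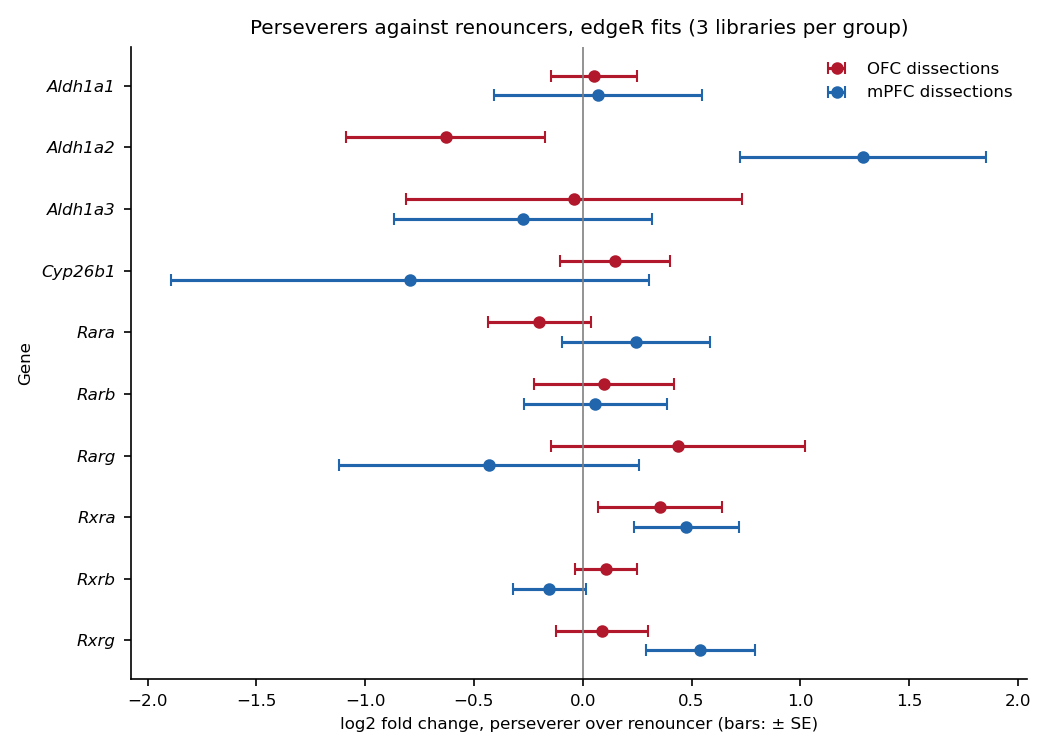
edgeR log2 fold change of perseverers over renouncers (points; bars are SE) for the 10 genes in OFC and mPFC dissections (3 libraries per group). Within each region Aldh1a2 has the largest value in size, 1.29 in the mPFC and -0.63 in the OFC, and Cyp26b1 in the mPFC is at -0.79; no gene passed the adjusted threshold.

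Aldh1a2, the enzyme known from embryos and from the meninges, was highest in each region in the library where meningeal fibroblast markers were highest. It had 3.16, 4.05 and 1.43 CPM in OFC perseverers and 4.17, 7.04 and 2.36 CPM in OFC renouncers, against 1.99, 3.74 and 6.57 CPM in mPFC perseverers and 1.97, 1.95 and 1.08 CPM in mPFC renouncers. The highest library of each region was OFC renouncer 2 and mPFC perseverer 3. The summed level of 12 meningeal fibroblast genes (Dcn, Lum, Col1a1 and others) was highest in the same libraries, at 345.1 CPM in OFC renouncer 2 and 162.2 CPM in mPFC perseverer 3, within 64.9 to 345.1 CPM in the OFC and 68.5 to 162.2 CPM in the mPFC. Other libraries did not follow this: Aldh1a2 was lowest of its region in OFC perseverer 3 and mPFC renouncer 3, where the marker sums were 123.1 and 136.5 CPM, the third and the second highest of their regions. Of these 12 genes, 1 was positive in perseverers of the OFC (median log2 -0.34) and 10 in perseverers of the mPFC (median log2 0.44), and none was called. Their part in the Aldh1a2 values was not tested.

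**Figure D4:**
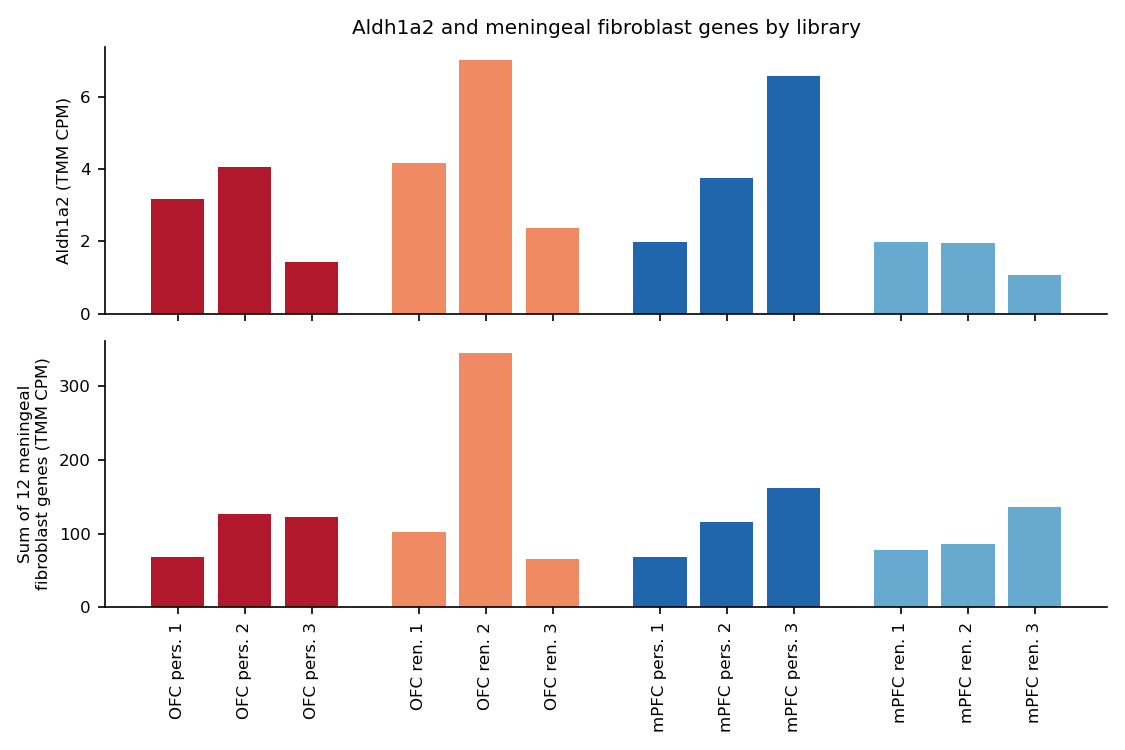
Aldh1a2 level (top) and the summed level of 12 meningeal fibroblast genes (bottom), both in TMM-scaled CPM with bars from 0, in each of the 12 dissections. OFC renouncer 2 (7.04 and 345.1 CPM) is the highest OFC library in both panels and mPFC perseverer 3 (6.57 and 162.2 CPM) the highest mPFC library in both.

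The difference between the OFC and mPFC phenotype effects was tested directly, and 0 of 15025 genes passed (0% called; 225 at an unadjusted p under 0.05, and 0 with DESeq2). Aldh1a2 had the largest value of the 10, a log2 difference of -1.92 ± 0.76 (SE; unadjusted p = 0.0239, edgeR adjusted p near 1). Of the 60 pathway genes, 45 were tested in the OFC and 46 in the mPFC, and 0 passed in either. Those with the smallest p in the mPFC were Nr4a2, an orphan receptor that pairs with RXR, at log2 0.90 ± 0.25, and the coactivator Ncoa3 at 0.70 ± 0.21 (edgeR adjusted p = 0.943 for both). Ncoa3 also had the smallest p of the pathway genes for the region-by-phenotype difference, at -0.78 ± 0.23.

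In the imprints 6 of the 10 members passed the low-count filter and 0 of 10530 genes were called between perseverers and renouncers (0% called; 181 at an unadjusted p under 0.05, and 0 with DESeq2). Aldh1a2, Aldh1a3, Rarb and Rarg did not pass the filter: Aldh1a2 had counts in 2 of 5 libraries, and Aldh1a3 in renouncer 1 alone. Aldh1a1 had 767.6 and 830.2 CPM outside haemoglobin in perseverers and 361.0, 1008 and 533.0 in renouncers, with a log2 fold change of 0.12 ± 0.98 (SE; edgeR adjusted p near 1), and -0.31 without renouncer imprint 1. Rara did not overlap, at 18.4 and 11.2 in perseverers and 30.2, 21.1 and 19.4 in renouncers. Of all genes, 16.3% did not overlap in either direction and 8.02% were lower without overlap. The log2 fold change of Rara was -0.68 ± 0.70.

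Imprints against OFC dissections gave the members' only calls: Aldh1a1, Rara and Rarg rose in the imprints, 3 of 10, where 15.6% of 15229 genes were called higher and 17.9% lower (33.5% in all); with library totals as scaling none of the 3 was called, and Rara and Rarg were negative. Aldh1a1 had 361.0 to 1008 CPM outside haemoglobin in the 5 imprints (median 767.6), against 83.9 to 121.5 in the 6 OFC dissections on the same scale. No library overlapped, and the log2 fold change was 3.85 ± 0.41 (SE; edgeR adjusted p = 2.96e-06), higher in 5 of 5 imprints. Without renouncer imprint 1 it was 4.22 (edgeR adjusted p = 1.19e-07). The median over all genes was -0.16.

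The Aldh1a1 difference depends on the scaling. As a share of all counts, Aldh1a1 had 111.9 and 82.2 CPM of the total in perseverer imprints and 253.7, 94.2 and 55.0 in renouncer imprints, against 83.9 to 121.4 CPM of the total in the OFC dissections, so these groups overlap. With library totals as scaling its log2 fold change was 0.19 (edgeR adjusted p = 0.838), while the median of all genes was -2.82; with counts outside haemoglobin it was 2.78 (edgeR adjusted p = 5.04e-06) at a median of -0.83. Red cell genes moved with the imprints: all 8 rose, and the sum of Alas2 and Slc4a1 was 6051 to 176686 CPM outside haemoglobin in the imprints against 3.58 to 11.3 in the OFC dissections. All 6 leukocyte markers also rose, and 5 of 6 excitatory and 5 of 7 inhibitory neuron markers fell. These directions held with either other scaling: with library totals all 8 red cell genes and 5 of 6 leukocyte markers were called higher, and all 6 excitatory and all 7 inhibitory neuron markers lower. Both scalings moved the median of all genes down, so they are a weak check of the falls. The part of these markers in the Aldh1a1 difference was not tested.

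The lncRNA inside Aldh1a1 was not called in the imprints, at a log2 fold change of 0.55 ± 0.47 (SE, edgeR adjusted p = 0.389) for E030003E18Rik. This value is from TMM scaling, and none is given for it with the other scalings. Renouncer imprint 1 held 189 of its counts, and the other 4 imprints held 1 to 9 each. E030003E18Rik made up 0.889% and 0.973% of both rows' counts in perseverer imprints and 7.39%, 0.0995% and 0.689% in renouncer imprints, against 8.58% to 10.4% in the OFC dissections. The 4 imprints under 1% are those with 85.4% to 90.7% haemoglobin, and renouncer imprint 1, at 7.39% with an exact 95% interval of 6.41% to 8.48%, is the one with 29.7%. This ratio was chosen after values were seen and carries no test.

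**Figure D5:**
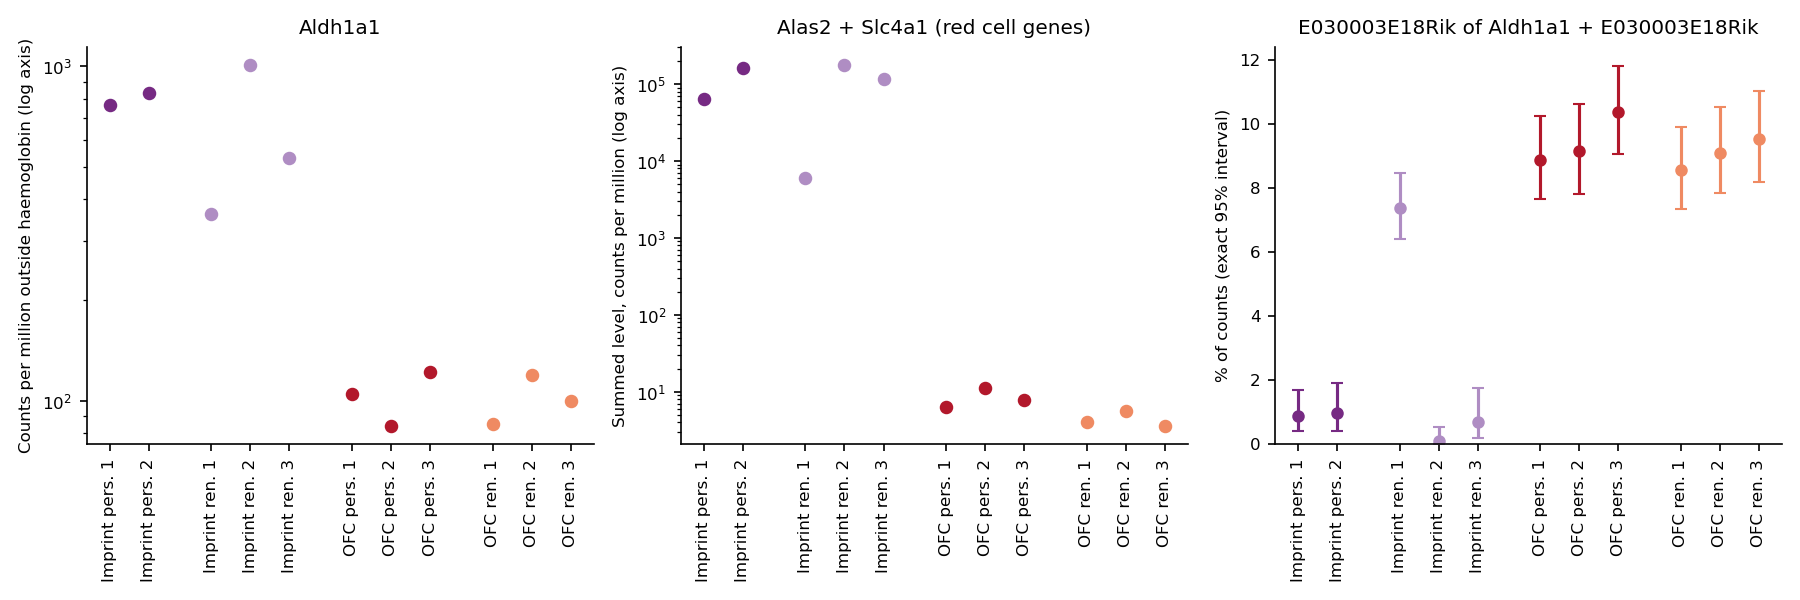
Left, Aldh1a1 in CPM outside haemoglobin (log axis); middle, summed Alas2 and Slc4a1 (log axis; CPM outside haemoglobin in imprints, TMM-scaled CPM in dissections); right, E030003E18Rik as % of its own and Aldh1a1 counts with exact 95% intervals, in 5 imprints and 6 OFC dissections. Renouncer imprint 1 has the lowest red cell sum of the imprints (6051) and the highest lncRNA share (7.39%).

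Rara, the most widely expressed RAR, had 18.4 and 11.2 CPM outside haemoglobin in perseverer imprints and 30.2, 21.1 and 19.4 in renouncer imprints, against 6.38 to 10.4 CPM in the OFC dissections. It did not overlap, where 24.2% of genes did not overlap in either direction and 8.52% were higher without overlap. Its log2 fold change was 1.98 ± 0.33 (SE, edgeR adjusted p = 2.25e-04). With counts outside haemoglobin, the scale of the imprint levels, it was 1.18 (edgeR adjusted p = 0.0302). With library totals as scaling it was -0.93 (edgeR adjusted p = 0.422), and without renouncer imprint 1 it was 2.17 (edgeR adjusted p = 1.11e-04). Rarg, the least abundant RAR in dissections, overlapped between the groups; its log2 fold change was 2.05 ± 0.62 (SE; edgeR adjusted p = 0.0172), from 0 to 42 counts per imprint, and it did not pass without renouncer imprint 1 (1.68, edgeR adjusted p = 0.102), with library totals (-0.41, edgeR adjusted p = 0.738) or with counts outside haemoglobin (1.46, edgeR adjusted p = 0.0970). Rarb had counts in 2 of 5 imprints and a log2 fold change of -1.40 ± 0.69 (SE; edgeR adjusted p = 0.129); without renouncer imprint 1, which held 62 of its 63 imprint counts, it was -4.34 (edgeR adjusted p = 0.00286). Rarb shares 34.1% of its exon bases with Top2b on the opposite strand, and the library kit does not keep strand, so its counts are uncertain. Rxrg was at 1.08 ± 0.46 (SE, edgeR adjusted p = 0.0811), and it passed without renouncer imprint 1 (1.51, edgeR adjusted p = 0.00528). Scaled by counts outside haemoglobin, Rxrg was at 0.24 (edgeR adjusted p = 0.711), and by library totals at -2.28 (edgeR adjusted p = 0.0545).

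Of the 60 pathway genes, 47 were tested between imprints and dissections, 4 rose and 6 fell; with library totals as scaling 0 were called higher and 32 lower, at a median of -2.55 against 0.18, and with counts outside haemoglobin 2 higher and 12 lower. Gps2, a subunit of the NCoR corepressor complex, rose by 2.79 ± 0.30 on the log2 scale (SE; edgeR adjusted p = 2.72e-06), at 42.9 ± 4.90 CPM outside haemoglobin in imprints (SD, n = 5) and 11.5 ± 0.921 CPM in OFC dissections (SD, n = 6). The coactivator Crebbp (1.17), the retinal reductase Rdh12 (2.91) and the receptor Ppard (1.93) also rose, but with library totals Gps2 (-0.41), Crebbp (-1.54) and Ppard (-0.82) were negative, Rdh12 was at 0.29 and none of the 4 was called; with counts outside haemoglobin Gps2 (1.92) and Rdh12 (2.27) were called. Cbln2 (-2.12), Bhlhe40 (-1.91), Nr4a1 (-1.58), Nr4a2 (-1.53), Rbp4 (-1.45) and Nrip1 fell, and all 6 were also called lower with either other scaling. Those scalings moved the median of all genes down, to -2.82 with library totals and -0.83 with counts outside haemoglobin, from -0.16. They favour lower calls, so they are a weak check of the falls.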

How the data were processed

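Bulk RNA was measured in 17 libraries, with SMART-Seq v4 and Nextera kits per the labels' protocols. The authors deposited raw counts per gene and a gene length, a number in bases of another kind than counts, in 3 tables; FastQC 0.11.8 and mm10 are in the submitters' processing notes, while aligner, counter and annotation were not given in the sources used here.

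Counts were tested with edgeR 4.0.16 in R 4.3.3 (filterByExpr by group, TMM, robust quasi-likelihood fits, two-sided, Benjamini-Hochberg over all genes tested, threshold 0.05), after the scripts were tested on simulated data. The approximate SE is the log2 value over the root of F. Region and imprint fits carried phenotype as a term. Members' values between regions were not tested. DESeq2 1.42.0, other scalings, no filter, the replicate number as a block and leaving out each library were alternatives.

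All members were named; per pathway list and comparison, up to 4 genes past the threshold with the smallest p, or else the 1 with the smallest p, and for likeness the 5 highest correlations, of which not all are printed. Members and lists were chosen with earlier results of these data known. RefSeq windows (GRCm38.p6) were found for 9 of 10 members; positions are from GRCm38. Marker sums were CPM; the red cell sum left out haemoglobin, and 1 gene each of the red cell and oligodendrocyte lists is not reported here.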

Additional observations from a re-analysis of the deposited data

Results flagged for a closer look

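Each member was examined for a library far from the rest of its set, in the 5 imprints, the 6 OFC dissections and the 6 mPFC dissections. Of 30 sets, 6 held such a library. The rule gives about 1 in 20 for normal values of equal precision. Low imprint counts at unequal depth are not such values, and the sets share libraries, so no excess over chance is read. In the imprints, renouncer 1 was far above the others for Aldh1a2 (13.3 CPM outside haemoglobin, next 1.02) and Rarb (9.46, next 0.924). It was also flagged for Aldh1a3 (1.68, all others at 0). A count of 0 allows up to 2.30 to 3.06 CPM in the other 4, so Aldh1a3 cannot be said to be higher in renouncer 1. Renouncer imprint 1 is the one with 29.7% haemoglobin counts, against 85.4% to 90.7% in the other 4. It held 6556050 counts outside haemoglobin, against 980536 to 1306630. Renouncer imprint 3 was far above the others for Cyp26b1 (13.9, next 4.08), from 15 counts. In the OFC, Cyp26b1 was low in renouncer 3 (4.12 CPM, next 5.35). In the mPFC, Rxra was high in perseverer 1 (38.0 CPM, next 24.0).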

How the results depend on the processing

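No member was called between phenotypes, or for region by phenotype, under any alternative run. Scaling by library totals or by counts outside haemoglobin was chosen after seeing the data. Genes called between regions were 264, against 698 with DESeq2, 1130 with the replicate block and 120 to 448 with a library left out; pathway genes called were 1, against 4 with DESeq2, 7 with the block and 1 to 2 with a library left out. The labels do not say that a replicate number marks 1 animal, so the block is an alternative. No comparison with 3 or more pairs had every same-numbered correlation over 0.1 (-0.163 to 0.111 in the OFC, 0.0485 to 0.131 in the mPFC, 0.0248 to 0.118 for imprint against dissection). Between regions 5 of 6 pairs were over 0.1 (0.0204 to 0.364) and 10 of 12 libraries correlated best with their own number. In the labels each same-numbered OFC and mPFC pair of a phenotype also carries adjacent library tags. Both are hints of pairing, though no label ties a number or tag to an animal. The main region fits treat the 12 dissections as independent. With this block Cbln2 was called (0.70, edgeR adjusted p = 1.61e-04), as were Nr4a2 (0.73), Thrb (-0.45), Rbp4 (-0.60), Thra (-0.35), Bhlhe40 (-0.33) and Nr4a1 (-0.47). With the block, imprint phenotype values were 0.25 for Cyp26b1, 0.14 for Rxra and 0.050 for Rxrg, region by phenotype -0.026 for Aldh1a3 and -0.090 for Rarb, and imprint against dissection -1.13 for Aldh1a2, -0.47 for Aldh1a3 and -0.067 for Cyp26b1, with Rarg at 2.03 (edgeR adjusted p = 0.11). With library totals, imprint phenotype gave -0.47 for Aldh1a1 and -1.29 for Rxrb; imprint against dissection gave 10495 genes called, against 5106, and -2.07 for Aldh1a2, -1.91 for Aldh1a3, -3.10 for Cyp26b1, -0.93 for Rara, -0.41 for Rarg, -2.58 for Rxra and -2.28 for Rxrg, the 4 members then called (Cyp26b1, Rarb, Rxra and Rxrb) being lower. With counts outside haemoglobin it gave -0.38 for Aldh1a2, -0.059 for Aldh1a3, -0.40 for Cyp26b1, -0.32 for Rxra and 1.46 for Rarg (edgeR adjusted p = 0.0970), and Rxrb passed as lower (-0.96, edgeR adjusted p = 0.0354). Pathway genes called were 10, against 17 with DESeq2, 32 with library totals and 7 to 14 with a library left out. DESeq2 gave -0.041 for Aldh1a2 and called Rxrg (1.25, adjusted p = 0.0127). Leaving out 1 library turned the sign of uncalled values. Imprint phenotype ranges were -0.45 to 1.26 for Aldh1a1, -0.69 to 0.17 for Rxra, -0.23 to 0.36 for Rxrb, -1.06 to 0.29 for Rxrg and -3.14 to 0.076 for Cyp26b1. OFC ranges were -0.12 to 0.20 for Aldh1a1, -0.65 to 0.47 for Aldh1a3 and -0.36 to 0.35 for Rarb. mPFC ranges were -0.29 to 0.96 for Aldh1a1, -0.64 to 0.14 for Aldh1a3, -0.11 to 0.51 for Rara and -0.12 to 0.45 for Rarb. Region by phenotype ranges were -0.94 to 0.31 for Aldh1a1, -0.38 to 0.76 for Aldh1a3, -0.41 to 0.30 for Rarb and -0.43 to 0.13 for Rxra. Imprint against dissection ranges were -2.86 to 0.60 for Aldh1a2, -5.72 to 0.71 for Aldh1a3 and -0.76 to 0.94 for Cyp26b1; there Aldh1a1 (3.34 to 4.22) and Rara (1.80 to 2.17) passed each time. The cause of these shifts was not tested. Imprints other than renouncer 1 held 980536 to 1306630 counts outside haemoglobin, which limits the low members there.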
